A study of Mus musculus with 2 samples.

Results

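Levels of 40 genes of DNA replication and mitosis were compared between cell classes of MC38 tumours and between vehicle and LC427 treatment. The 40 symbols were listed by name and each was matched in the gene lists of both libraries, so all 40 of 32285 listed genes were found. Of these, 12 act in S phase, 27 act in mitosis, and Hmgb2 is described apart from both groups. MC38, a mouse colon carcinoma line, was implanted in C57BL/6 female mice, and tumours were taken on day 14. Some mice received vehicle and others LC427, which the labels give by code name only. The labels enter the same words, Vehicle and LC427, under genotype as well as under treatment, and no allele is named. In both groups dead cells were removed, and CD45, a membrane protein of leucocytes, was used to pull out cells on beads before 10x 5′ capture. With 1 library per group, and with how many mice each pooled unstated in the labels, groups could be compared by description only. There was no replicate check and no test between groups, and the 95% intervals cover counting error only. Because UMIs (molecules counted through unique tags) of 1 cell are not independent, these intervals are also too narrow.

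Cells copy their DNA in S phase and divide the copies in mitosis. The MCM helicase opens the double strand, GINS and the sliding clamp PCNA hold the copying machinery, and ribonucleotide reductase, thymidylate synthase and thymidine kinase supply the building blocks. Cyclins with Cdk1 then start mitosis, kinesins and their partners build the spindle, and Cdc20 and Ube2c mark cyclins for breakdown so that the cell can leave it. T and NK cells divide after activation in a tumour, and tissue macrophages can also renew themselves by division. Transcription of these genes is itself tied to the cycle, through E2F elements in many replication genes and through the CHR element beside CCAAT boxes in many mitotic genes.

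Promoters were read from RefSeq entries of GRCm38.p6, which matched 34 of the 40 genes, with no entry for Mcm4, Gins2, Aurkb, Ccna2, Kif20a and Tpx2. The 160 bases before the start of 6 genes are shown because they hold E2F or CHR letters. Most promoters of either group held neither. Capitals mark E2F letters (TTTGGCGC, TTTCCCGC, TTTGCCGC or TTTCGCGC), CHR letters (TTTGAA or TTCGAA) and CCAAT, on either strand. Forward and reverse E2F matches overlap in Mcm5 and in Mcm6. The printed stretches lie at chr8:75109349-75109508 (plus strand) for Mcm5, chr1:128359706-128359865 (minus strand) for Mcm6, chr10:69352913-69353072 (minus strand) for Cdk1, chr4:118437344-118437503 (minus strand) for Cdc20, chr2:164769769-164769928 (plus strand) for Ube2c and chr7:135716380-135716539 (minus strand) for Mki67.
Mcm5: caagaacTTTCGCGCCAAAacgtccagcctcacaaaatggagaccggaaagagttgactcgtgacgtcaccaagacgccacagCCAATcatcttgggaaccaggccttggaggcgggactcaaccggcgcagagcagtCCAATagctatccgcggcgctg
Mcm6: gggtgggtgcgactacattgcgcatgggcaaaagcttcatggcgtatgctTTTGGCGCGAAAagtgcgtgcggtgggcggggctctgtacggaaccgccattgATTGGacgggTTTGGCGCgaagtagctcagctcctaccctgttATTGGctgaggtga
Cdk1: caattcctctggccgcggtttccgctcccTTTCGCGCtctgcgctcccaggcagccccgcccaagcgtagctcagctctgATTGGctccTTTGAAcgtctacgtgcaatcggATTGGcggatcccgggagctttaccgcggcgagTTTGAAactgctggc
Cdc20: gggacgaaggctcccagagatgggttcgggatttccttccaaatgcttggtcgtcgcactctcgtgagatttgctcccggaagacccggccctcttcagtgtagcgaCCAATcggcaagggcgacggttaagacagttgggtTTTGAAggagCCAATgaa
Ube2c: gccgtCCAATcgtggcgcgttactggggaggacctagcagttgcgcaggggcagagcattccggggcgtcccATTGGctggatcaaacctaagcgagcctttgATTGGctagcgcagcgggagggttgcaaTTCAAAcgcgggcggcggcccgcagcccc
Mki67: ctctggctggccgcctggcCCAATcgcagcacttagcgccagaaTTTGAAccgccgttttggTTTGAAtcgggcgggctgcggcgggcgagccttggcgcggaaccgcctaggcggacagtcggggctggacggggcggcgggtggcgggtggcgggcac

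Counted over 250 bases before each start, E2F letters stood in 3 of 11 S-phase promoters (27.3%; Mcm5, Mcm6 and Mcm7), in 1 of 24 mitotic promoters (4.17%; Cdk1) and in 1.86% of all 32851 promoters in the table. CHR letters stood in 9 of 24 mitotic promoters (37.5%), in 2 of 11 S-phase promoters (18.2%) and in 17.1% of all. CCAAT was in 87.5% of mitotic promoters, 81.8% of S-phase promoters and 33.9% of all, so it did not separate the groups. CHR letters and CCAAT stood together in 37.5% of mitotic promoters, 18.2% of S-phase promoters and 6.02% of all. In Cdc20 and Ube2c the CHR letters began 18 and 29 bases before the start. These matches describe letters in a window and show no binding.

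UMI totals were 33711726 for vehicle and 28732435 for LC427, and after filters 5025 and 6008 cells were compared, of which 47 barcodes occurred in both libraries. Vehicle cells were read more deeply, with a median of 3560 UMIs against 2424.5. Clustering without the 40 genes or other cycle genes gave CD8-like (273 vehicle and 385 LC427 cells), NK-like (346 and 151), monocyte/macrophage-like (3448 and 4067), conventional dendritic cell (DC)-like (99 and 228) and tumour-like cells (182 and 368). The tumour-like cluster, led by Tm4sf1, Ly6c1, Htra1 and Sox9, had only 3 of its 10 markers in 10% of cells. Ptprc, which encodes CD45, was in 6.18% of these cells, the epithelial keratin genes and Epcam were near 0, and Col3a1, a collagen gene of mesenchymal cells, was in 94.5% and 85.1%. The name is kept for these cells on those terms. Mature regulatory DC-like cells (128 and 156 cells), a largely non-dividing class, and empty droplets (barcodes of 10 to 100 UMIs, which hold free RNA) served as references.

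Of the 5 classes, CD8-like and tumour-like cells had the highest levels of replication and mitotic RNA. Levels are given as CPM, UMIs of a gene per 1000000 UMIs of its class. Summed over 12 S-phase genes, CD8-like cells reached 1271 CPM with vehicle and 1379 CPM with LC427, and tumour-like cells 1215 and 1197 CPM. NK-like cells had 566 and 770 CPM, conventional DC-like cells 484 and 405 CPM, and monocyte/macrophage-like cells 435 and 469 CPM. Mature regulatory DC-like cells stood at 160 and 173 CPM, the lowest of these classes.

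The mitotic sum followed another order. Tumour-like cells had 3307 and 3443 CPM over the 27 genes and CD8-like cells 3120 and 2958 CPM. Conventional DC-like cells had 1470 and 1039 CPM, monocyte/macrophage-like cells 987 and 839 CPM, and NK-like cells 533 and 959 CPM. NK-like cells were thus the third of the 5 classes for replication genes and the lowest for mitotic genes in vehicle, and in LC427 they lay above monocyte/macrophage-like cells. Neighbours in the S-phase order of vehicle were not all apart, since the intervals of CD8-like (1207 to 1337) and tumour-like cells (1181 to 1249) overlapped, as did those of NK-like (529 to 605) and conventional DC-like cells (429 to 544). Single genes followed the sums. In vehicle, NK-like cells were the lowest of the 5 classes for 25 of 27 mitotic genes, and in LC427 for 10, while monocyte/macrophage-like cells were the lowest for 14 and conventional DC-like cells for 3. Tumour-like cells were highest for 16 mitotic genes in vehicle and 21 in LC427, and CD8-like cells for 10 and 6, with Kif23 highest in conventional DC-like cells in vehicle.

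**Figure D1:**
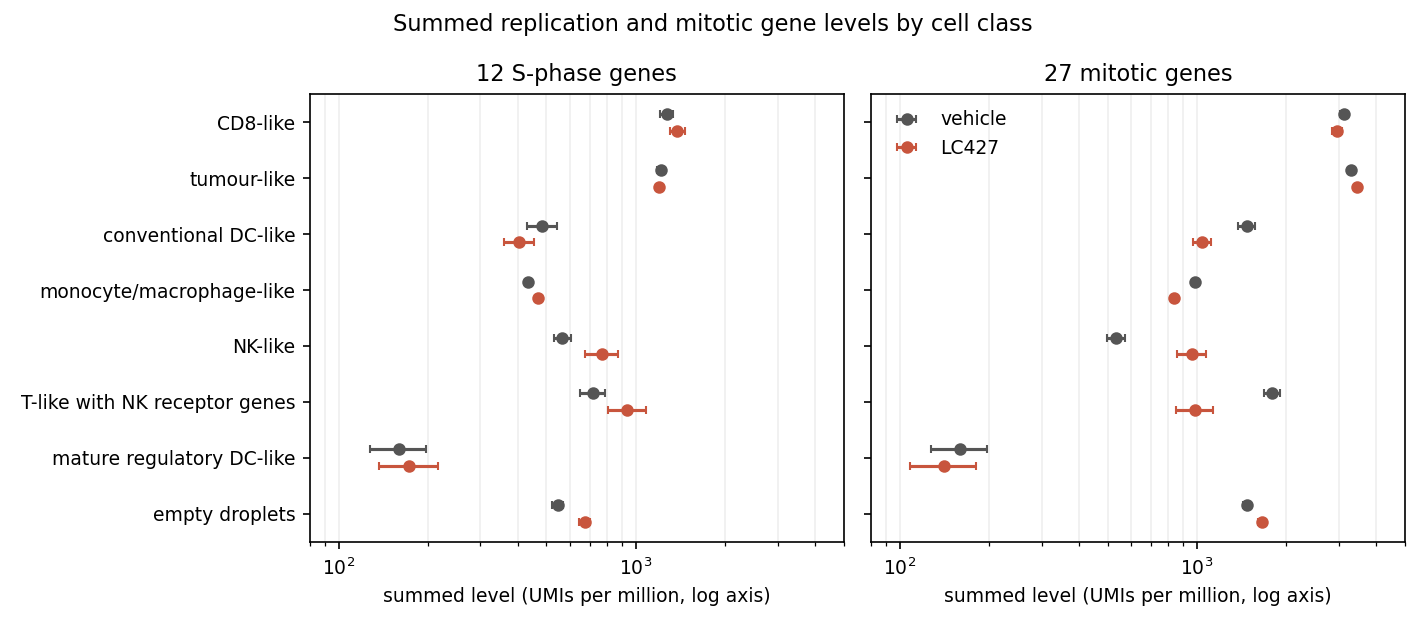
Summed level of the 12 S-phase genes (left) and the 27 mitotic genes (right) in CPM on a log axis, by cell class and for empty droplets. Points are 1 library each, grey for vehicle and red for LC427, and bars are 95% counting intervals. NK-like cells moved from 533 to 959 for the mitotic genes, and T-like cells with NK receptor genes from 1793 to 981.

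Free RNA carried these genes as well. Empty droplets had 546 and 673 CPM of S-phase genes and 1470 and 1653 CPM of mitotic genes, which is 1.23 (1.16 to 1.31) and 1.12 (1.08 to 1.17) in LC427 over vehicle. CD8-like cells lay 2.33-fold above the empty droplets for S-phase genes in vehicle and 2.05-fold in LC427, and 2.12-fold and 1.79-fold above for mitotic genes. Tumour-like cells lay 2.25-fold and 2.08-fold above for mitotic genes. The other 3 classes were at or below the empty droplets for mitotic genes. The ratio of class to empty droplets in vehicle and LC427 was 1.00 and 0.628 for conventional DC-like, 0.672 and 0.507 for monocyte/macrophage-like cells, and 0.363 and 0.580 for NK-like cells. Mature regulatory DC-like cells stood at 0.109 and 0.0853 of the empty-droplet level, so cells of that class held far less of these genes than free RNA did. The part of free RNA in the class levels was not tested.

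Mitotic RNA was unevenly spread over the cells of a class. Each cell was thinned to 1000 UMIs, and a cell with at least 2 UMIs of the 27 mitotic genes was put in the mitotic range. This is a range of counts and not a cell type, since a further 55 vehicle and 64 LC427 CD8-like cells had exactly 1 such UMI and 16 and 36 had exactly 2. Before thinning, the top 5% of NK-like cells (17 in vehicle and 8 in LC427) held 62.4% and 60.5% of the mitotic UMIs of their class. The top 5% held 59.6% and 64.4% in monocyte/macrophage-like, 36.7% and 59.9% in conventional DC-like, 32.5% and 33.5% in CD8-like and 30.5% and 31.0% in tumour-like cells. Pairs of members were looked at within cells. Of thinned CD8-like cells with an Mki67 UMI, 56.9% and 58.6% had a Top2a UMI, against 18% and 27.8% of the others. For the replication pair, an MCM subunit UMI was found in 40.0% and 66.7% of CD8-like cells with an Rrm2 UMI (20 and 21 cells) and in 36% and 45.3% of the others, and in LC427 tumour-like cells in 42.9% of 14 cells with Rrm2 and 48.3% of the others.

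Shares of cells in range ranked the classes much as the levels did. In the mitotic range were 44.0% of vehicle and 41.8% of LC427 tumour-like cells and 34.8% and 41.0% of CD8-like cells. Conventional DC-like cells had 18.2% (18 of 99) and 11% (25 of 228), monocyte/macrophage-like cells 13.8% (12.6 to 15.0) and 10.4% (9.46 to 11.3), and NK-like cells 7.51% (26 of 346; 4.97 to 10.8) and 11.9% (18 of 151; 7.22 to 18.2). Mature regulatory DC-like cells, taken as the background, had 2.34% and 1.92%, below all of these. Without thinning the shares were 80.8% and 73.6% in tumour-like, 54.2% and 50.4% in CD8-like, 29.3% and 18.4% in conventional DC-like, 17.6% and 16.6% in NK-like, 23.7% and 18.6% in monocyte/macrophage-like and 7.03% and 6.41% in mature regulatory DC-like cells. The median depths behind them were 21175.5 and 10934, 3270 and 1751, 5265 and 2440.5, 2563 and 1629, 3618.5 and 2288, and 3246 and 2356 UMIs.

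**Figure D2:**
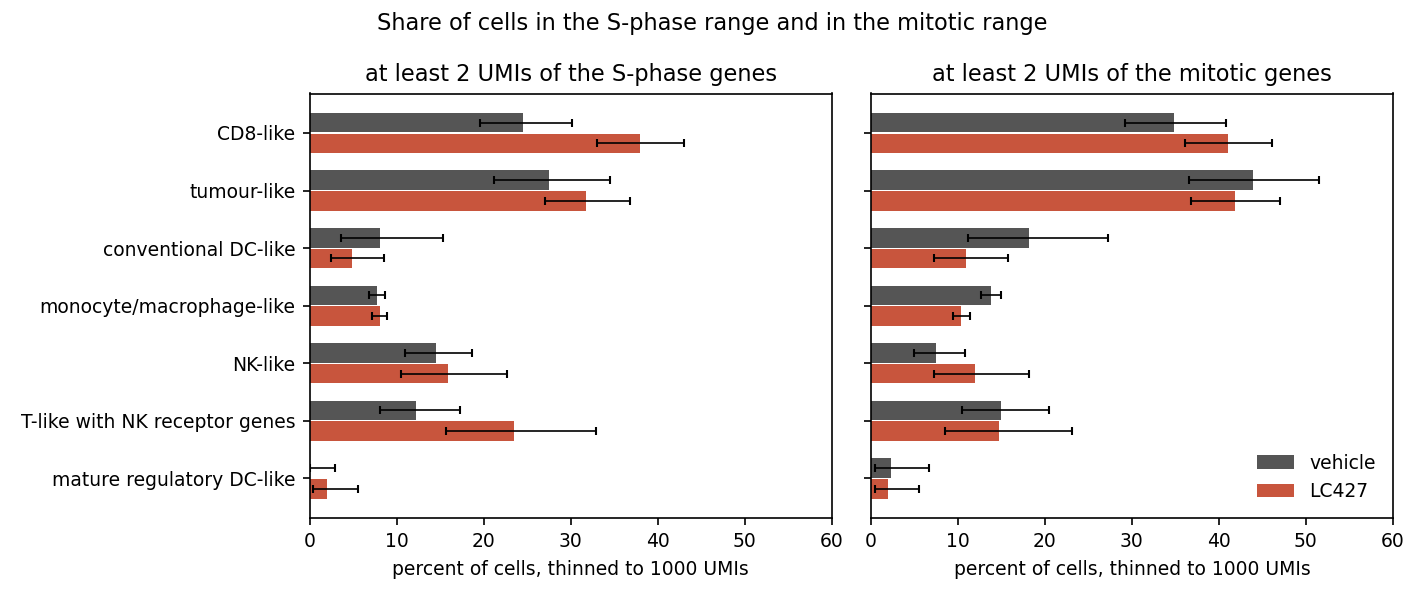
Percent of cells with at least 2 UMIs of the S-phase genes (left) or of the mitotic genes (right) after thinning to 1000 UMIs, by class, grey for vehicle and red for LC427, with exact Clopper-Pearson 95% intervals. CD8-like cells in the S-phase range were 24.5% in vehicle and 37.9% in LC427, and the monocyte/macrophage-like share in the mitotic range was 13.8% and 10.4%.

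The S-phase range, at least 2 UMIs of the 12 genes, held 24.5% (19.6 to 30.1) of vehicle and 37.9% (33.1 to 43.0) of LC427 CD8-like cells. This ratio of 1.55 lay above all 8 alternatives, which ran from 1.16 to 1.53. The intervals count cells within 1 library each and do not cover differences between mice. Of all CD8-like cells 12.5% in vehicle and 18.7% in LC427 were in both ranges, 12.1% and 19.2% in the S-phase range alone, and 22.3% and 22.3% in the mitotic range alone. NK-like cells had 14.5% and 15.9% in the S-phase range, monocyte/macrophage-like cells 7.69% and 8.02%, conventional DC-like cells 8.08% and 4.82%, and tumour-like cells 27.5% and 31.8%. Mature regulatory DC-like cells had 0 of 128, with an upper bound of 2.84%, and 1.92%. Unthinned, the shares in the S-phase range were 56.4% and 58.4% in CD8-like, 35.5% and 29.8% in NK-like, 28.4% and 22.2% in monocyte/macrophage-like, 38.4% and 27.2% in conventional DC-like, 89.6% and 85.3% in tumour-like and 13.3% and 10.9% in mature regulatory DC-like cells.

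The replication genes are given first by class, always vehicle before LC427 and in CPM. Mcm5 was at 119 and 133 in CD8-like, 46.3 and 64.2 in NK-like, 29.6 and 40.6 in monocyte/macrophage-like, 46.0 and 32.4 in conventional DC-like, 92.9 and 103 in tumour-like cells and 35.0 and 42.3 in empty droplets. Mcm5 is a subunit of the ring-shaped MCM helicase, and its level in monocyte/macrophage-like cells was not above the empty droplets in either library. Pcna was at 271 and 313 in CD8-like, 158 and 196 in NK-like, 118 and 126 in monocyte/macrophage-like, 106 and 111 in conventional DC-like, 197 and 198 in tumour-like cells and 142 and 176 in empty droplets. Pcna encodes the clamp that keeps the polymerase on DNA, and its order of classes was the same in both libraries, though in LC427 tumour-like and NK-like cells differed by less than their intervals. Gins2 was at 22.2 and 14.6 in CD8-like, 11.2 and 9.63 in NK-like, 11.4 and 8.67 in monocyte/macrophage-like, 5.11 and 9.45 in conventional DC-like, 52.0 and 37.9 in tumour-like cells and 7.86 and 12.4 in empty droplets. Gins2 belongs to the GINS complex that joins the helicase to the polymerase, and tumour-like cells held the most of it.

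The nucleotide genes follow. Rrm2 was at 82.1 and 76.4 in CD8-like, 25.8 and 35.3 in NK-like, 23.3 and 21.7 in monocyte/macrophage-like, 34.1 and 10.8 in conventional DC-like, 35.7 and 38.7 in tumour-like cells and 27.9 and 32.6 in empty droplets. Rrm2 is the small subunit of ribonucleotide reductase, and CD8-like cells had more of it than tumour-like cells in both libraries. Tyms was at 33.4 and 31.5 in CD8-like, 11.9 and 6.42 in NK-like, 12.3 and 10.3 in monocyte/macrophage-like, 11.9 and 8.10 in conventional DC-like, 50.3 and 26.9 in tumour-like cells and 14.9 and 14.4 in empty droplets. Tyms makes the thymidine nucleotide from its uracil counterpart. Tk1 was at 54.8 and 47.2 in CD8-like, 15.9 and 54.6 in NK-like, 24.7 and 16.8 in monocyte/macrophage-like, 29.0 and 12.2 in conventional DC-like, 89.2 and 61.9 in tumour-like cells and 14.6 and 19.1 in empty droplets. Tk1 salvages thymidine, and its LC427 level was higher in NK-like cells and lower in the monocyte/macrophage-like, conventional DC-like and tumour-like cells.

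For the mitotic genes, markers of dividing cells come first. Mki67 was at 327 and 256 in CD8-like, 72.1 and 83.4 in NK-like, 69.1 and 62.9 in monocyte/macrophage-like, 129 and 99.9 in conventional DC-like, 219 and 240.5 in tumour-like cells and 182 and 177 in empty droplets. Mki67 coats mitotic chromosomes and is the usual marker of cells in cycle. Top2a was at 512 and 559 in CD8-like, 95.9 and 144 in NK-like, 119.6 and 116 in monocyte/macrophage-like, 233 and 151 in conventional DC-like, 437 and 501 in tumour-like cells and 226 and 268 in empty droplets. Top2a untangles the copied chromosomes, and its highest level was in CD8-like cells in both libraries. Hmgb2 was at 1863 and 2017 in CD8-like, 386 and 728 in NK-like, 392 and 497 in monocyte/macrophage-like, 937 and 724 in conventional DC-like, 1452 and 1677 in tumour-like cells and 484 and 559 in empty droplets. Hmgb2 is a chromatin protein that also occurs outside dividing cells, and 36.7% and 36.5% of mature regulatory DC-like cells had an Hmgb2 UMI.

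Cyclin-kinase and spindle genes follow. Cdk1 was at 89.8 and 101 in CD8-like, 18.5 and 54.6 in NK-like, 46.8 and 41.6 in monocyte/macrophage-like, 46.0 and 29.7 in conventional DC-like, 128 and 106 in tumour-like cells and 49.3 and 60.8 in empty droplets. Cdk1 is the kinase that starts mitosis. Ccnb1 was at 45.3 and 39.3 in CD8-like, 5.95 and 22.5 in NK-like, 16.8 and 12.7 in monocyte/macrophage-like, 27.3 and 14.9 in conventional DC-like, 58.5 and 72.9 in tumour-like cells and 23.0 and 29.6 in empty droplets. Ccnb1 encodes its partner cyclin B1. Aurkb was at 49.6 and 41.6 in CD8-like, 7.28 and 3.21 in NK-like, 20.9 and 13.4 in monocyte/macrophage-like, 23.9 and 10.8 in conventional DC-like, 64.2 and 46.4 in tumour-like cells and 19.5 and 22.5 in empty droplets. Aurkb is the kinase of the chromosomal passenger complex, which corrects the attachment of chromosomes to the spindle. Kif11 was at 119.8 and 127 in CD8-like, 21.2 and 25.7 in NK-like, 22.8 and 22.3 in monocyte/macrophage-like, 46.0 and 29.7 in conventional DC-like, 52.5 and 61.9 in tumour-like cells and 56.4 and 68.2 in empty droplets. Kif11 is the motor that pushes the spindle poles apart, and CD8-like cells had more of it than any of the other classes in both libraries. Cdc20 was at 32.5 and 36 in CD8-like, 5.29 and 22.5 in NK-like, 9.07 and 8.33 in monocyte/macrophage-like, 3.41 and 8.10 in conventional DC-like, 82.3 and 89.7 in tumour-like cells and 17.1 and 23.5 in empty droplets. Cdc20 activates the ubiquitin ligase that ends mitosis, and its level was highest in tumour-like cells in both libraries. Counts below 20 UMIs over both libraries were given no ratio. Among the genes given by class from Mcm5 to Cdc20, these were Ccnb1, Aurkb and Cdc20 in NK-like cells. In conventional DC-like cells they were Gins2, Tyms and Cdc20.

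**Figure D3:**
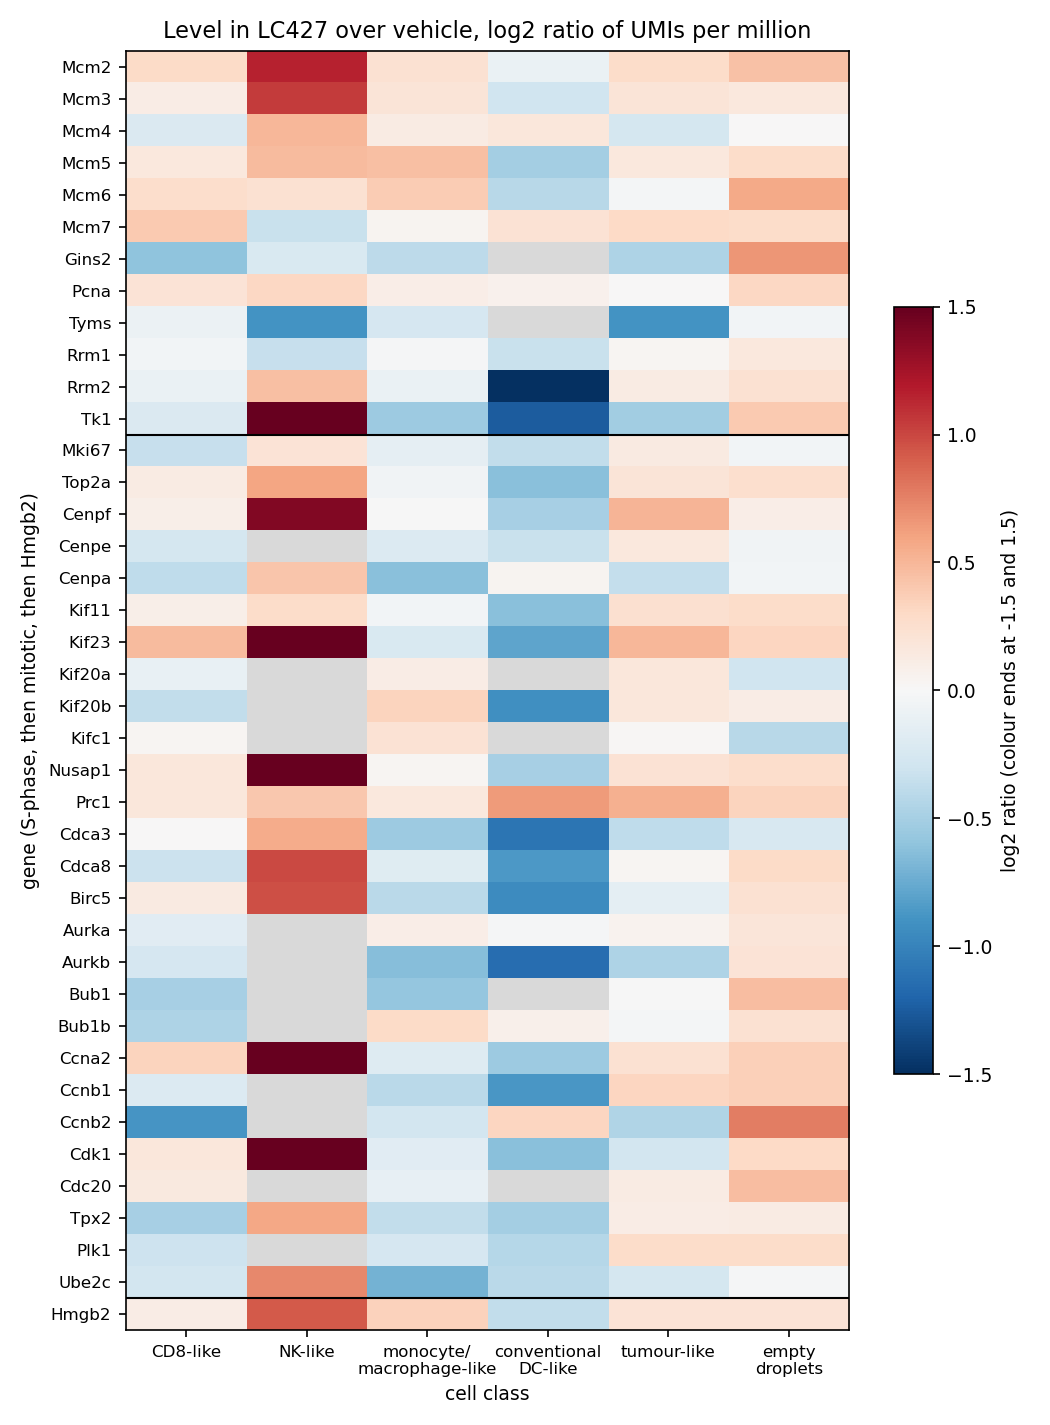
Colour map of the log2 ratio of LC427 to vehicle for each of the 40 genes (rows) in 5 cell classes and in empty droplets (columns); red is higher in LC427, blue lower, and grey marks fewer than 20 UMIs over both libraries. The NK-like column is mostly red, with Kif23 at 4.85-fold, and the conventional DC-like column is mostly blue, with Rrm2 at 0.317-fold of vehicle.

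NK-like cells showed higher replication and mitotic RNA in LC427. The S-phase sum was 1.36-fold (1.17 to 1.57) and the mitotic sum 1.80-fold (1.57 to 2.06) that of vehicle. Over 10 alternatives the S-phase ratio ran from 1.07 to 1.38, and over 11 the mitotic ratio from 1.03 to 1.84. Brackets hold the ratio of LC427 to vehicle and its interval from here on. Cyclins with Cdk1 were together at 49.6 CPM in vehicle and 138 CPM in LC427 (2.78; 1.87 to 4.10), and the 6 MCM subunits at a ratio of 1.45. Hmgb2 was at 1.89 (1.61 to 2.20). Of 40 members 12, all mitotic, had under 20 UMIs and were not measured. Of the other 28, 13 were at least 1.5-fold higher, in a class where 23.2% of the 6707 genes measured were, and 1 (Tyms, 18 and 2 UMIs) was at least 1.5-fold lower, as were 16.0% of all genes. Among the 15 mitotic genes measured 9 were higher, among the 12 S-phase genes 3. The median log2 ratio was 0.72 for mitotic genes, 0.38 for S-phase genes and 0.13 for all genes.

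The interval left out 1 for 11 NK-like members. Kif23, a kinesin of the final cell separation, was at 11.2 and 54.6 CPM (4.85; 2.33 to 10.1). Tk1 was at 15.9 and 54.6 CPM (3.44; 1.73 to 6.67) and Cdk1 at 18.5 and 54.6 CPM (2.95; 1.51 to 5.57). Nusap1, which bundles spindle fibres, was at 11.9 and 38.5 CPM (3.23; 1.42 to 7.10). Ccna2, cyclin A2, was at 15.9 and 44.9 CPM (2.83; 1.35 to 5.70). These are genes of few counts, and Kif23 rested on 17 UMIs in each library. The remaining members of the 11 besides Hmgb2 were Mcm3 (2.06), Mcm2 (2.22), Cenpf (2.61), Birc5 (31.1 and 61.0 CPM) and Top2a (1.51).

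The NK-like difference depended on where the class was drawn. T-like cells with NK receptor genes (214 vehicle and 102 LC427 cells), the cluster beside it, went the other way for mitotic genes, from 1793 to 981 CPM (0.547; 0.467 to 0.639), with cyclins and Cdk1 from 158 to 25.2 CPM. Their share in the mitotic range hardly differed, at 15.0% and 14.7%. Before thinning, 11 vehicle and 5 LC427 cells held 64.0% and 51.3% of the mitotic UMIs of this cluster. Joined with these T-like cells, a choice made after seeing the data, NK-like cells had a mitotic ratio of 1.11 (1.00 to 1.22) and an S-phase ratio of 1.38. When cells were chosen by marker UMIs instead of clusters, the mitotic ratio was 1.03, and there 9 vehicle cells outside both clusters held 730 of the 1300 mitotic UMIs. Gated cells that lay in the NK-like cluster had 603 and 1370 CPM, a ratio of 2.27. The NK-like cluster carried 472 and 533 CPM of summed T-cell markers against 4401 and 4111 CPM of NK markers, and Ncr1, an NK receptor gene, was in 33.5% and 17.2% of its cells. The part of such cells in the result was not tested.

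Monocyte/macrophage-like cells showed slightly more replication RNA and less mitotic RNA in LC427. The S-phase sum was 1.08-fold (1.04 to 1.12) and the mitotic sum 0.849-fold (0.828 to 0.871) of vehicle. None of the 40 members was at least 1.5-fold higher, where 10.7% of the 11562 genes measured were. At least 1.5-fold lower were 3 of the 40, near the share of 6.2% over all genes. The median log2 ratio was 0.07 for S-phase genes and -0.19 for mitotic genes, against 0.13 over all genes. By role, the 6 MCM subunits were higher, at 203 and 243 CPM (1.20; 1.14 to 1.26), led by Mcm5 at 1.37 (1.20 to 1.56) and Mcm6 at 1.30 (1.18 to 1.44). The 4 nucleotide genes were lower, at 103 and 90.7 CPM (0.883; 0.816 to 0.955), so the replication genes did not all differ in 1 direction.

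Among the mitotic roles of these cells, the genes linked to ubiquitin (Cdc20, Ube2c and Cdca3) had the lowest ratio. Together they were at 163 and 105 CPM (0.645; 0.602 to 0.690). Ube2c, the ubiquitin-conjugating enzyme whose promoter is among the sequences, was at 116 and 71.0 CPM (0.611; 0.562 to 0.663), and its share of thinned cells was 6.29% and 3.93%, against 2.34% and 1.28% of mature regulatory DC-like cells. Cdc20 itself was at a ratio of 0.919, with an interval of 0.702 to 1.20 that held 1. The chromosomal passenger genes were at 0.775 (0.726 to 0.828), with Aurkb at 20.9 and 13.4 CPM (0.644; 0.528 to 0.781). Cenpa, the histone that marks the centromere, was at 59.9 and 38.8 CPM (0.647; 0.577 to 0.725). Kinesins (0.963), spindle factors (0.980) and the mitotic kinases (0.963) had intervals that held 1. Hmgb2 was higher in LC427, at 392 and 497 CPM (1.27; 1.22 to 1.32).

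**Figure D4:**
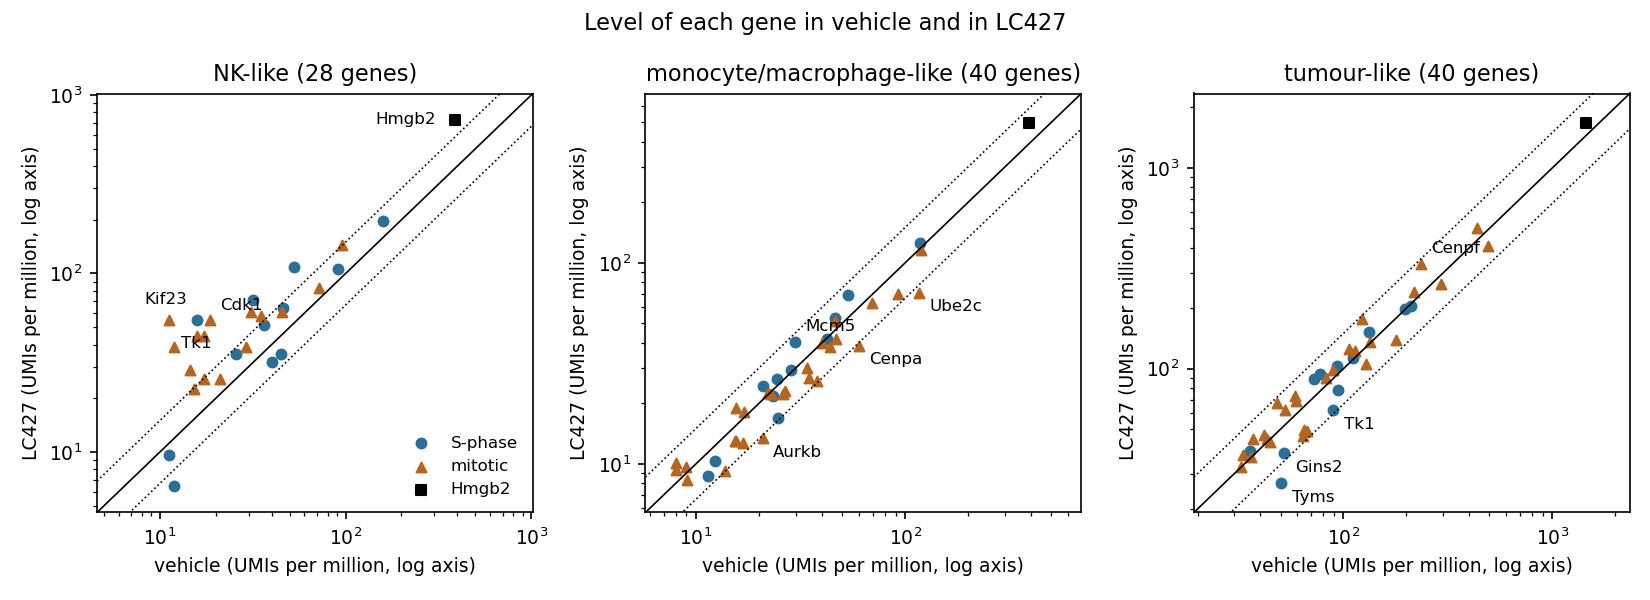
Level of each measured gene in vehicle (horizontal) against LC427 (vertical), in CPM on log axes, for NK-like, monocyte/macrophage-like and tumour-like cells. The solid line is equality and dotted lines are 1.5-fold; circles are S-phase genes, triangles mitotic genes and the square Hmgb2. In NK-like cells 13 of 28 genes reach the upper dotted line, and in monocyte/macrophage-like cells Ube2c, Cenpa and Aurkb lie at or under the lower line.

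Depth and transcript length moved with these differences. Vehicle monocyte/macrophage-like cells in the mitotic range had a median of 5121 UMIs against 3458 in the others, and LC427 cells 3403.5 against 2210. With a minimum of 2000 UMIs per cell, the mitotic level was at 0.937, the share in the mitotic range at 1.01 and no member was 1.5-fold lower. Over all genes, the log2 ratio was higher for longer transcripts in the monocyte/macrophage-like class (Spearman rho 0.21 across genes, which are not independent). The 9 members with coding transcripts under 2000 bases had a median log2 ratio of -0.27 there. The 22 of middle length had 0.005 and the 9 of at least 4000 bases -0.05. All genes of the class had medians of -0.006 for short, 0.15 for middle and 0.19 for long transcripts. Members of each length group thus lay below all genes of like length. The part of depth and length in the result was not tested.

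The class level hid unlike clusters. Mitotic ratios of the 11 monocyte/macrophage-like clusters ran from 0.265 to 2.11. The interval lay above 1 in 4 and below 1 in 5. The Ccl12/Ms4a7/Ccl8 cluster (622 and 826 cells) had the highest vehicle level, with 25.7% and 23.1% of its cells in the mitotic range, and went from 1699 to 1485 CPM (0.874; 0.835 to 0.914) while its S-phase genes went from 618 to 765 CPM (1.24; 1.16 to 1.33). The Cxcl3/Mmp12/Cxcl2 cluster (206 and 141 cells) went from 944 to 250 CPM (0.265; 0.217 to 0.321). Opposite to it, the Mrc1/Abca1/Msr1 cluster (54 and 70 cells) went from 1343 to 2836 CPM (2.11; 1.75 to 2.56). Its share of cells in the mitotic range did not rise, at 25.9% (15.0 to 39.7) and 15.7% (8.11 to 26.4). The Nos2/Ly6i/Fcgr4 cluster (335 and 840 cells) also had more in LC427, from 215 to 444 CPM, yet with 1.79% and 2.74% of cells in the mitotic range it stayed at about the share of mature regulatory DC-like cells. Monocyte-like cells led by Chil3, Gm9733 and Thbs1 had the least, 124 and 104 CPM. With the clusters given the same weight in both libraries, added after seeing the data, the mitotic ratio was 0.942 and the S-phase ratio 1.12.

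**Figure D5:**
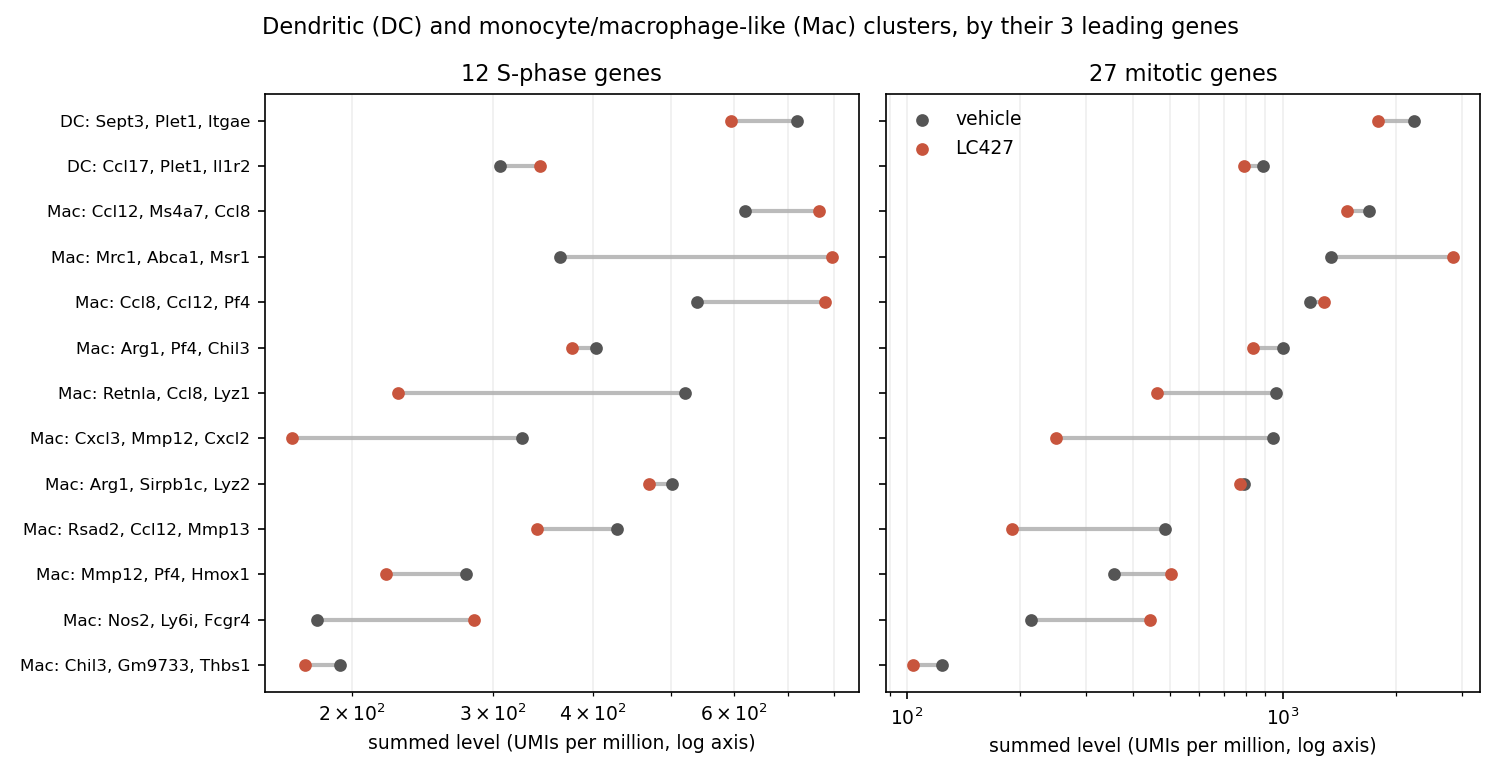
Summed level of the 12 S-phase genes (left) and 27 mitotic genes (right), in CPM on log axes, in each dendritic (DC) and monocyte/macrophage-like (Mac) cluster, named by 3 leading genes. Grey points are vehicle, red points LC427, and a line joins the 2 libraries. The Cxcl3 cluster moves from 944 to 250 for mitotic genes and the Mrc1 cluster from 1343 to 2836.

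Conventional DC-like cells had lower levels of both groups in LC427. The S-phase sum was 0.837-fold (0.709 to 0.988) and the mitotic sum 0.706-fold (0.640 to 0.779) of vehicle. Of 34 members measured, 12 were at least 1.5-fold lower, where 9.91% of the 6043 genes measured were, and 1 (Prc1) was at least 1.5-fold higher, where 16.8% were. The median log2 ratio was -0.31 for S-phase and -0.51 for mitotic genes, against 0.07 over all genes. The passenger genes were together at 215 and 112 CPM (ratio 0.522) and the nucleotide genes at 126 and 71.6 CPM (0.568), while the spindle factors were at 0.996.

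The interval left out 1 for 7 of the 12 lower genes. Rrm2 was at 34.1 and 10.8 CPM (0.317; 0.121 to 0.751). Birc5, the survivin subunit of the passenger complex, was at 124 and 64.8 CPM (0.521; 0.354 to 0.760), and Cdca8, its borealin subunit, at 66.5 and 36.5 CPM (0.549; 0.323 to 0.920). Cdca3, which drives the breakdown of a brake on mitotic entry, was at 57.9 and 27 CPM (0.466; 0.254 to 0.834). Top2a was at a ratio of 0.648 (0.500 to 0.838), Kif23 at 0.578 (0.339 to 0.976) and Tk1 at 0.420 (0.165 to 0.995). Where cells were chosen by marker UMIs, Top2a was at 1.03 and Kif23 at 1.78, so neither held its direction.

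The dendritic clusters differed in level and in number of cells. Cells led by Sept3, Plet1 and Itgae, with the cross-presenting DC genes Xcr1 and Clec9a (36 and 39 cells), had 2241 and 1792 CPM of mitotic genes (0.799; 0.696 to 0.917). The Ccl17/Plet1/Il1r2 cluster with Cd209a (63 and 189 cells) had 887 and 790 CPM (0.891; 0.767 to 1.04), and its S-phase genes were at 306 and 343 CPM (1.12). Both clusters taken alone, a choice made after seeing the data, thus lay nearer to 1 than the class at 0.706. The cluster with the lower level was 63 of 99 cells of the class in vehicle and 189 of 228 in LC427.

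Summed levels of CD8-like cells in LC427 were close to those of vehicle. The S-phase sum was 1.09-fold (1.01 to 1.17) and the mitotic sum 0.948-fold (0.901 to 0.997). Over 9 alternatives the S-phase ratio ran from 0.984 to 1.29 and was above 1 in 8. The share of these cells in the S-phase range was 24.5% and 37.9% after thinning, and 56.4% and 58.4% without it. None of the 40 members was at least 1.5-fold higher, where 15.0% of the 7524 genes measured were, and 2 were at least 1.5-fold lower, where 10.6% were. These were Ccnb2, cyclin B2, at 64.2 and 34.8 CPM (0.543; 0.345 to 0.836), and Gins2, whose interval of 0.310 to 1.33 held 1. Mki67 was at 0.784 (0.663 to 0.926) and Top2a at 1.09 (0.967 to 1.23). The MCM subunits were at 1.14 (1.03 to 1.26) and the mitotic kinases at 0.782. The mitotic level was below 1 while the share of cells in the mitotic range was 1.18-fold that of vehicle, and with equal weight for each cell the mitotic level was 1.08, so no direction is read for mitotic genes here.

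The sums of tumour-like cells lay close to those of vehicle, at 0.986-fold (0.948 to 1.02) for S-phase and 1.04-fold (1.02 to 1.07) for mitotic genes. No member was at least 1.5-fold higher, where 8.65% of the 10955 genes measured were, and Tyms was the 1 member at least 1.5-fold lower, where 10.4% were. Tyms was at 50.3 and 26.9 CPM (0.535; 0.424 to 0.673). The other thymidine and GINS genes were below vehicle too, with Tk1 at 0.694 (0.592 to 0.813) and Gins2 at 0.727 (0.591 to 0.894). Cenpf (1.43; 1.32 to 1.55), a centromere protein, Kif23 (1.41; 1.17 to 1.70) and Prc1 (1.45; 1.29 to 1.62), which bundles the central spindle, were above vehicle. Length moved with the ratio here as well, with a rho of 0.28 over all genes. Median log2 ratios were -0.35 for the 9 short, 0.16 for the 22 middle and 0.15 for the 9 long members. For all genes of these lengths they were -0.23, 0.05 and 0.13. The part of length was not tested.

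The balance of replication to mitotic RNA was taken as S-phase UMIs per mitotic UMI. In vehicle it was 1.06 (0.964 to 1.17) in NK-like cells, 0.329 to 0.440 in the other 4 classes and 0.371 in empty droplets. Mature regulatory DC-like cells, at 1.00 (0.733 to 1.36) from far lower levels, overlapped NK-like cells. In LC427 the balance was 0.803 in NK-like cells (a ratio of 0.756; 0.622 to 0.919) and 0.559 in monocyte/macrophage-like cells, from 0.440 (1.27; 1.22 to 1.33). CD8-like cells went from 0.407 to 0.466 (1.15; 1.05 to 1.25), tumour-like cells from 0.367 to 0.348 (0.946; 0.905 to 0.990) and conventional DC-like cells from 0.329 to 0.390 (1.19; 0.981 to 1.43). Empty droplets went from 0.371 to 0.407 (1.10; 1.02 to 1.18). With T-like cells that carry NK receptor genes added, the NK-like balance was 1.24-fold and no longer below vehicle.

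Other cycle genes, outside the 40, were read from lists of replication, mitosis and of G1 genes and brakes. In NK-like cells 8 of 18 other replication genes and 5 of 12 other mitotic genes were at least 1.5-fold higher, and 0 and 1 lower, beside 23.2% higher and 16.0% lower over all genes of the class. Cdkn1a, which encodes the p21 brake, was there at 151 and 54.6 CPM (0.360; 0.206 to 0.590) and Rbl2, a pocket-protein brake, at 86.6 and 28.9 CPM (0.333), while Ccnd2, cyclin D2, was at 248 and 411 CPM (1.66; 1.34 to 2.03). Btg1, from the same list of G1 genes and brakes, was higher at 512 and 786 CPM (1.54). Rfc3 (2.91) and Kif15 (2.61), from the other lists, were higher too. In conventional DC-like cells 6 of 16 other mitotic genes were lower and 0 higher, beside 9.91% and 16.8% over all genes, among them Cks1b (0.579), Kif4 (0.317), Smc2 (0.561) and Cenpm (0.396), and of 10 other replication genes 2 were higher and 1 lower, near those shares. Ccnd2 was higher in these cells, at 356 and 569 CPM (1.60), and in monocyte/macrophage-like cells, at 51.7 and 111 CPM (2.15; 1.97 to 2.35). Rpa2, a replication gene, was at 2.49 in conventional DC-like cells.

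Monocyte/macrophage-like cells had 1 of 32 other mitotic genes higher (Sgo1, at 1.66) and 4 lower, beside 10.7% and 6.2% over all genes. Cks2 was at 0.653, Cenpm at 0.575 and Ckap2l at 0.626, and the brake Cdkn2d at 0.582. Of 28 other replication genes 1, Rfc3 of the clamp loader, was higher at 1.53. In CD8-like cells 5 of 28 other replication genes were higher and 1 lower, near the 15.0% and 10.6% over all genes, with Rpa2, a single-strand DNA binding protein, at 99.3 and 188 CPM (1.89; 1.48 to 2.42) and Uhrf1 at 1.58. Cks2, a Cdk1-binding protein, was lower there at 126 and 70.8 CPM (0.563; 0.412 to 0.761). Of 32 other mitotic genes in CD8-like cells 3 were higher (9.38%) and 2 lower (6.25%), both under the shares over all genes. Among them were Ckap2l at 2.25, Sgo1 at 1.86 and Mybl2 at 0.420. Tumour-like cells had 4 of 32 other mitotic genes higher (Ckap2, Sgo1, Kif15 and Tacc3, from 1.51 to 1.84) and 0 lower, beside 8.65% and 10.4% over all genes. Their brakes Cdkn2d (0.312), Cdkn1a (0.573) and Btg2 (0.650) were lower. Of the G1 genes and brakes measured, 6 of 14 were higher and 3 lower in NK-like cells, 1 of 17 higher and 3 lower in monocyte/macrophage-like cells, 2 of 13 higher in conventional DC-like cells, 3 of 15 lower in tumour-like cells and 0 of 14 past 1.5-fold in CD8-like cells.

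The authors clustered each library apart. In the authors' deposited table for vehicle, with 13 clusters, 25 of the 40 genes had their highest mean in cluster 11, where Cd8a was also highest, 11 in cluster 6 and 4 in cluster 10, where Sox9 and Tm4sf1 were highest. The authors' deposited table for LC427, with 11 clusters, placed 30 in cluster 9, where Cd8a was highest, 6 in cluster 6 and 4 in cluster 8, where Sox9 and Tm4sf1 were highest. Cluster numbers are not shared between these tables.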

How the data were processed

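Single-cell RNA was measured in 2 libraries, 1 of vehicle and 1 of LC427, grouped by the treatment label. The authors deposited unfiltered UMI counts per gene and barcode. Per the submitters' processing notes, Cell Ranger 3.0.1 and Seurat 3 were run on GRCm38 (mm10); the matrices' own headers name another Cell Ranger release. The authors also deposited, per cluster of each library, a mean count signal per gene, which is used only where named and cannot be compared between libraries.

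Cells were barcodes of 1000 or more UMIs and 400 or more genes, with mitochondrial UMIs up to 10%. Scrublet in scanpy 1.11.5 called 0 doublets at its automatic threshold and had not worked, so the highest scores were left out at 0.8% per 1000 cells (220 and 320). Counts were scaled to 10000 per cell, and 2000 variable genes, 30 components and 20 neighbours were clustered by Leiden (leidenalg 0.10.2, igraph 0.11.9) at resolution 1 into 22 clusters, with 325 cycle, histone and target genes left out of the variable genes. The rule that turns marker lists into cluster names was written after the clusters had been seen: a mean marker log2 fold of at least 1 with 3 markers in at least 10% of cells, or 6 of 12 monocyte/macrophage markers. A cluster with neutrophil markers was led by Mmp9, Ctsk and Acp5 and was not used.

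For each class of a library, counts were added up and scaled to 1000000. Intervals are exact at 95% (Poisson for levels, conditional binomial for ratios, Clopper-Pearson for shares, with log-scale intervals for balances; scipy 1.17.1). Simulated independent counts were used to check the ratio intervals only. That check could not cover UMIs that gather in few cells. Genes with at least 20 UMIs over both libraries were measured, with 0 set to 3 counts. With 1 library a group no test was made, and a member counts as past the threshold at 1.5-fold. Full values are given for 14 members chosen by role. Up to 6 members each way (4 of other cycle genes) past 1.5-fold whose interval left out 1 are also named, some by ratio only. Members, lists and tumour-like markers were chosen with earlier results of these data known. Alternatives covered cell limits, doublets, clustering, gating, thinning, weights and gene minimums.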

Additional observations from a re-analysis of the deposited data

Results flagged for a closer look

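Ratios of LC427 to vehicle lay on opposite sides of 1 in different cell classes, each with 1 library a group, and the difference between classes was not tested. For the S-phase sum, the ratio of LC427 to vehicle was above 1 in NK-like (1.36), T-like with NK receptor genes (1.31), CD8-like (1.09) and monocyte/macrophage-like cells (1.08) and below 1 in conventional DC-like cells (0.837). For the mitotic sum it was above 1 in NK-like (1.80) and tumour-like cells (1.04) and below 1 in CD8-like cells (0.948), monocyte/macrophage-like cells (0.849), conventional DC-like cells (0.706) and T-like cells with NK receptor genes (0.547). Not all of these directions held: no direction is read for the CD8-like mitotic level, which was 1.08 with equal weight per cell, and the tumour-like mitotic level was 0.928 after thinning. The S-phase level was 0.984 in CD8-like cells in 1 of 9 alternatives, and 1.12 in conventional DC-like cells in 1 of 11. The NK-like mitotic level stayed above 1 but fell to 1.03 where cells were chosen by marker UMIs.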

How the results depend on the processing

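No paired analysis was possible because each group has 1 library, and for the same reason no replicate could be left out. Values are LC427 to vehicle unless said. Of 328 class-level values under alternatives, 249 moved by less than their counting interval or 1.5 times a count, 76 moved further and 3 turned direction. Only a ratio past 1.5-fold in the main setting could count as turned. Ratios nearer to 1 that crossed it are among the 249 and the 76. The CD8-like mitotic level was above 1 in 3 of 10 alternatives, the NK-like balance in 3 of 9 and the tumour-like mitotic share in 6 of 8. The mitotic level stayed under 1 in monocyte/macrophage-like cells in 11 of 11 alternatives and in conventional DC-like cells in 12 of 12. In NK-like cells it was above 1 in 11 of 11, but ran from 1.84 down to 1.03, so its size did not hold.

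With a minimum of 500 UMIs the mitotic level was 0.878 in CD8-like, 1.51 in NK-like and 0.818 in monocyte/macrophage-like cells, members lower were 2 in NK-like and 6 in monocyte/macrophage-like cells, and the conventional DC-like S-phase share turned to 1.00. With 2000 UMIs the mitotic level was 1.03, 1.26 and 0.937 in the same classes, and monocyte/macrophage-like cells had an S-phase level of 1.15, an S-phase share of 1.31, a mitotic share of 1.01 and 0 members lower. The NK-like balance was then 1.04 with 3 members lower, and 1 CD8-like and 2 conventional DC-like members were higher. At most 5% mitochondrial UMIs gave mitotic levels of 0.592 in conventional DC-like and 0.885 in monocyte/macrophage-like cells, a CD8-like S-phase share of 1.20, 0 conventional DC-like members higher and 24 lower, 1 monocyte/macrophage-like and 0 NK-like members lower. Keeping all barcodes turned the conventional DC-like S-phase share to 1.62.

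Leiden resolution 2 gave conventional DC-like cells a mitotic level of 0.617, with 0 members higher and 21 lower. Cycle genes kept in clustering gave 4 CD8-like members lower. Gates on markers gave S-phase levels of 0.984 in CD8-like, 1.16 in monocyte/macrophage-like and 1.04 in tumour-like cells, and mitotic levels of 0.865 in CD8-like, 1.03 in NK-like, 0.791 in conventional DC-like, 0.904 in monocyte/macrophage-like and 1.07 in tumour-like cells. They also gave an NK-like balance of 1.23, members lower of 7 in CD8-like, 6 in NK-like, 4 in conventional DC-like and 1 in monocyte/macrophage-like cells, 2 conventional DC-like members higher, and conventional DC-like Top2a at 1.03, Kif23 at 1.78 and Cks1b at 1.11.

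Thinned to 1000 UMIs, S-phase levels were 1.28 in CD8-like, 1.07 in NK-like, 1.03 in monocyte/macrophage-like and 1.14 in tumour-like cells, mitotic levels 1.04 in CD8-like, 1.49 in NK-like, 0.616 in conventional DC-like, 0.801 in monocyte/macrophage-like and 0.928 in tumour-like cells, and the balance 1.49 in conventional DC-like and 1.23 in tumour-like cells. Equal weight per cell gave CD8-like levels of 1.29 (S-phase) and 1.08 (mitotic). With Hmgb2 counted in, the mitotic level was 0.998 in CD8-like, 0.969 in monocyte/macrophage-like and 1.08 in tumour-like cells. A range of at least 1 UMI gave S-phase shares of 1.16 in CD8-like and 1.14, a turn, in conventional DC-like cells, and a monocyte/macrophage-like mitotic share of 0.940.

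Genes with at least 1 UMI gave 21 NK-like members higher and 3 lower and 3 conventional DC-like members higher. At least 50 UMIs gave 1 CD8-like member lower, 6 NK-like higher, 0 NK-like lower and 5 conventional DC-like lower, and the median of all genes set to 1 gave 0 conventional DC-like higher and 6 monocyte/macrophage-like lower. Chosen after seeing the data, equal cluster weights gave monocyte/macrophage-like levels of 1.12 (S-phase) and 0.942 (mitotic). The Ccl17/Plet1/Il1r2 cluster alone was at 1.12 and 0.891, and the Sept3/Plet1/Itgae cluster alone at 0.799 for mitotic genes. NK-like cells with T-like cells that carry NK receptor genes had a mitotic level of 1.11, a balance of 1.24, 2 members lower and Tyms at 1.05. The cause was not tested in any of these. Few UMIs in the class as a whole limit NK-like and conventional DC-like cells most, where 12 and 6 members had under 20 UMIs.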

Other observations

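CD4/Treg-like cells (223 vehicle and 444 LC427 cells), helper and regulatory T cells, had intermediate levels that hardly differed between libraries. Their S-phase genes were at 576 and 587 CPM (1.02; 0.922 to 1.13) and their mitotic genes at 1119 and 1137 CPM (1.02; 0.945 to 1.09). Hmgb2 was at 737 and 869 CPM in them (1.18; 1.08 to 1.29). Plasmacytoid DC-like cells (43 and 58 cells), which make type I interferon, had 380 and 363 CPM of S-phase genes and 760 and 526 CPM of mitotic genes (0.692; 0.518 to 0.920), both under the empty droplets. Over all cells of a library, the S-phase genes were at 608 and 672 CPM and the mitotic genes at 1441 and 1505 CPM.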
